A study of Mus musculus with 12 samples.

Results

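The genes described here are 7 transcription factors of naive T cells: Tcf7, Lef1, Satb1, Foxp1, Foxo1, Bach2 and Bcl11b. They were taken by name, with no threshold on their values, from 3684 genes the authors listed for CD4 or CD8a T cells of mouse spleen. The authors picked these genes for comparisons of the same mice, so a factor may be listed because it changed. Every factor given here was listed for stress in wild-type mice of its cell type. All 7 are among the 2999 genes given for CD4 cells and 6 are among the 2851 given for CD8a cells, in which Bach2 was not analysed here. After repeated social defeat stress all 7 fell in CD4 cells and all 6 in CD8a cells, with or without S100a9. Levels in stressed mice were 48.3% to 73.0% of those in unstressed mice of the same genotype. Long transcripts as a whole fell in the same libraries. With the trend over transcript length taken out, only Tcf7 and Satb1 were still called lower in all 4 comparisons at an adjusted p under 0.05, and Bach2, Bcl11b and Foxo1 turned to values above 0 in some of them. Few genes of the length of Tcf7 fell, and its own fall was no larger than the median of those that did.

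Spleens came from 12 C57Bl6/J mice. Unstressed and stressed animals were each split into 3 wild-type and 3 S100a9-/- mice, which makes 4 groups. S100a9 encodes a calcium-binding protein of neutrophils and monocytes, and its loss is shared by all 6 mice labelled knockout. Stress was a 10-day paradigm of repeated social defeat, in which a mouse is repeatedly beaten by an aggressor. It was followed by 1 day of behavioural tests and by collection of splenocytes on day 12. The labels do not give the age of the mice, the deleted part of S100a9 or how cells were assigned to CD4 and CD8a. Each value is the average expression of a gene over the CD4 or CD8a cells of 1 mouse, in the units deposited. In such an average, fewer cells with a transcript and fewer transcripts per cell cannot be told apart.

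A naive T cell has left the thymus but has not met its antigen. Its state is held by transcription factors that keep genes of homing, survival and quiescence on and effector genes off, and several of these factors decline when the cell is activated. Tcf7 encodes TCF-1, which with LEF-1 is also a nuclear partner of beta-catenin in Wnt signalling. Both proteins are required in T cell development and hold memory and stem-like T cells in a state from which they can renew.

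Some of the genes carry, next to a transcription start, short words that proteins of the same families are known to bind. They are shown for the 4 genes that hold a word of another member's family or of their own. RefSeq windows (GRCm38.p6, 250 bases before and 50 after a start) were found for all 7 genes, 17 windows in all. The words searched, on both strands, were the forkhead words GTAAACA and ATAAACA and the TCF and LEF words CTTTGAA and CTTTGAT, none of which overlaps another in these windows. In the lines that follow, capitals mark a match, and the sequence is the first 250 bases of the window, those before the transcription start. For Tcf7 and Lef1 it is 30 bases around the match, which lies after the start.
Foxp1, minus strand of chr6:99266466-99266765: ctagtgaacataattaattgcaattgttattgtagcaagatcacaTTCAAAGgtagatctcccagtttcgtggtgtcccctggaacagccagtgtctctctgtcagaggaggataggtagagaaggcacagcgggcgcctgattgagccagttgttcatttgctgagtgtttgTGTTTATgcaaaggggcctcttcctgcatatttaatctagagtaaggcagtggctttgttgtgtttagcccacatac
Bcl11b, minus strand of chr12:108003365-108003664: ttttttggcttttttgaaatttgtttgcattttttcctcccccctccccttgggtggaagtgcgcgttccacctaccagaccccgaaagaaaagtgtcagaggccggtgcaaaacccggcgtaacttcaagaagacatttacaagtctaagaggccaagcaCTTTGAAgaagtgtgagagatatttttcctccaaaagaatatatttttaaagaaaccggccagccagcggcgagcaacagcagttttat
Tcf7, minus strand of chr11:52282546-52282845: cctttataggaGTAAACAgacccccgccat
Lef1, plus strand of chr3:131156044-131156343: tcaagaaaaggTGTTTATctctattgaagc
This Foxp1 window held both a TCF and LEF word, read here on its opposite strand as TTCAAAG, and a forkhead word, read as TGTTTAT. A second Foxp1 window, chr6:99520944-99521243, also held a forkhead word. In total 4 of the 17 windows held a forkhead word, against 7.97% of all 32851 windows in the table, and 2 held a TCF and LEF word, against 8.65%. The words of BACH and AP-1 factors, TGACTCA and TGAGTCA, were in 0 of the 17 windows and in 5.2% of all windows. The Runx word TGTGGTT was in 0 (5.27% of all windows), the ETS word ACTTCCGG in 1, of Tcf7 (3.89%), and the GC box GGGGCGGG in 8 (16.5%). A match describes letters and is not evidence of binding, and windows of 1 gene are not independent.

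The labels of the 2 cell types were set beside the markers that define them. Cd4 is not listed for CD8a cells, so it has no value there. How cells were assigned is unknown, and these markers may themselves have been used for it. Cd8b1 averaged 10.8 ± 0.480 (SD, n = 3) in CD8a cells of wild-type controls and 0.488 ± 0.291 in their CD4 cells. Cd8a averaged 4.65 ± 0.202 and 0.113 ± 0.0489 in the same mice. Cd4 averaged 2.77 ± 0.218 in CD4 cells of wild-type controls, and 1.75 ± 0.0956 after stress, a fall of its own (limma, log2 change -0.64 ± 0.10 SE, adjusted p = 4.6e-05). Sums over the genes of a cell type lay between 7366.8 and 7615.3 without stress and between 8102.3 and 8269.6 with it. The sample titles name no batch, so a difference in preparation between stressed and unstressed libraries could not be told apart from stress. The number of cells and the depth behind each average are unknown, so no counting interval can be given.

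**Figure D1:**
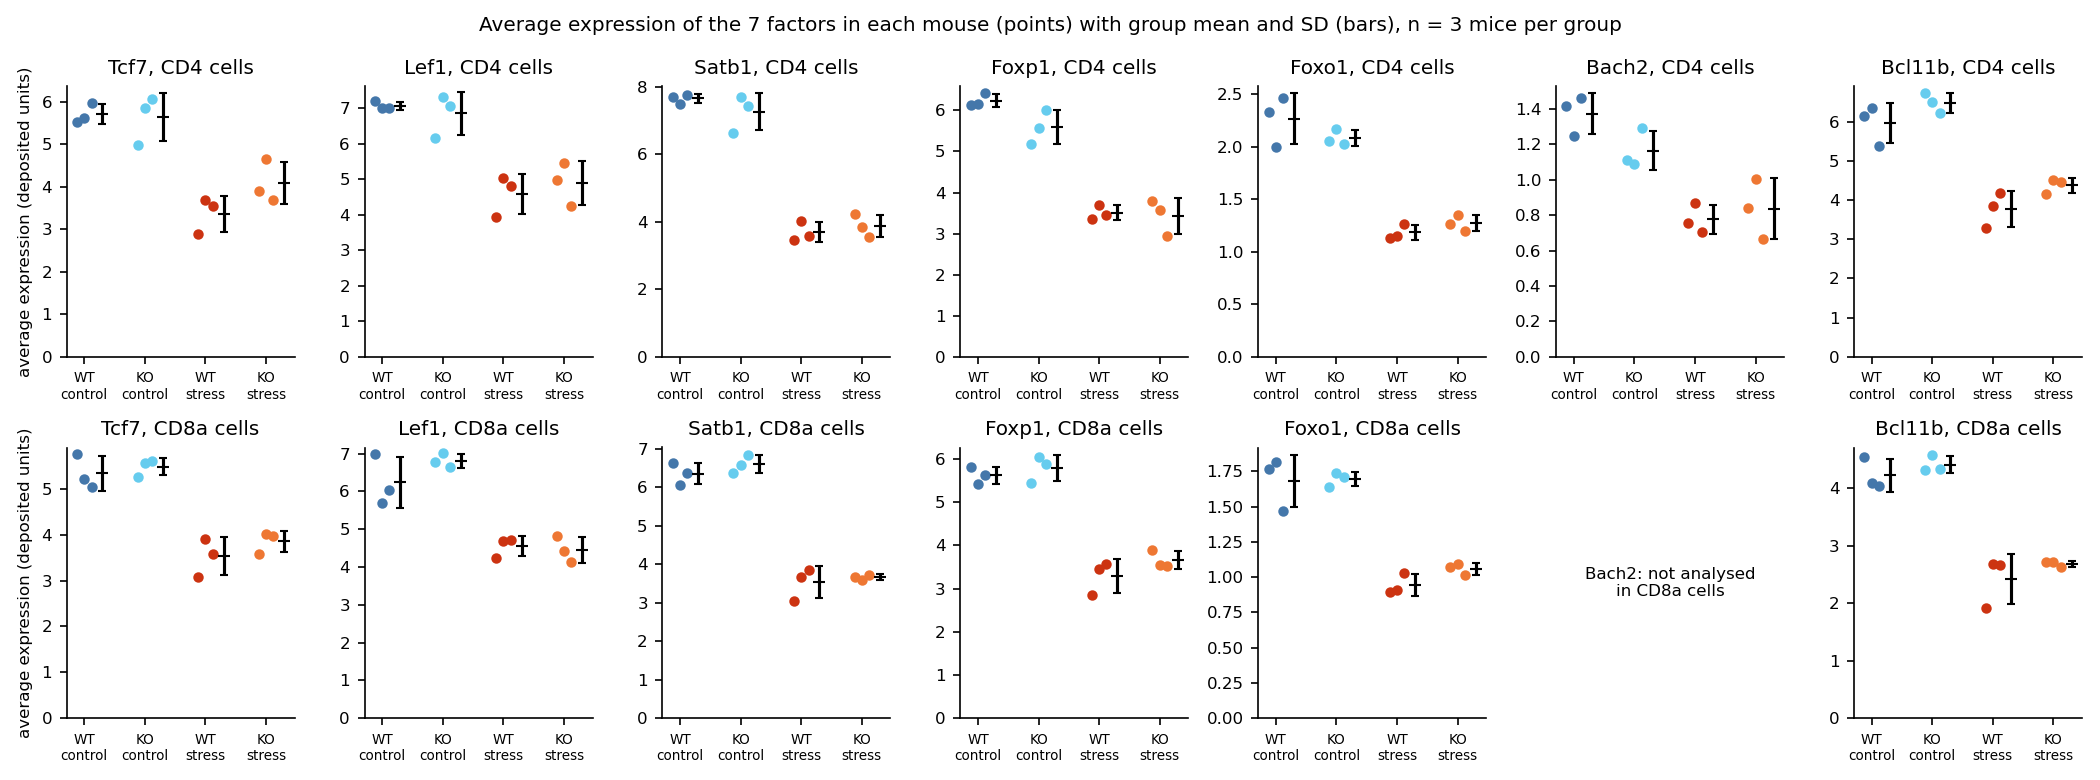
Average expression in the deposited units (linear axes from 0) of the 7 factors in each mouse, CD4 cells above and CD8a cells below; points are mice and bars the group mean and SD, n = 3 mice per group. In every panel the 6 stressed mice sit below the 6 unstressed mice, closest for Tcf7 in CD4 cells, where the lowest control is 1.07 times the highest stressed mouse.

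Stress was tested in each cell type and genotype with limma on log2(value + 0.1), and a gene was called at a Benjamini-Hochberg adjusted p under 0.05 over all genes of the cell type. In CD4 cells of wild-type mice 7 of 7 factors were called lower, where 27.7% of all genes were lower and 22.9% higher. In knockout mice 7 of 7 were lower in CD4 cells, against 29% of all genes lower and 12.7% higher. In CD8a cells 6 of 6 were lower in wild-type mice, against 35.5% of all genes lower and 18.8% higher, and 6 of 6 in knockout mice, against 34.4% and 13.2%. The factors' median log2 changes were -0.75, -0.56, -0.76 and -0.64 in these 4 comparisons, beside medians of all genes of 0.091, -0.0012, 0.020 and 0.013. All 6 stressed mice were below all 6 controls for each factor, as for 25.2% of all genes in CD4 and 32.2% in CD8a cells. Since the tables hold genes picked by the authors on the same animals, the adjustment covers only those. All Bach2 values come from the CD4 table for stress in wild-type mice. Changes on this scale understate those of low genes.

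Tcf7 lies on chromosome 11 (52252371 to 52283014, minus strand, mm10). In CD4 cells of wild-type mice its level was 5.52, 5.61 and 5.97 without stress and 2.88, 3.68 and 3.54 after stress. In knockout mice it was 4.99, 5.84 and 6.07 without stress and 3.91, 4.65 and 3.70 after stress. Knockout control mouse 1 was the lowest control and knockout stressed mouse 2 the highest stressed mouse, and they did not overlap. The log2 change was -0.75 ± 0.10 (SE; limma, adjusted p = 1.7e-05) in wild-type and -0.46 ± 0.10 (adjusted p = 0.0016) in knockout mice. In CD8a cells the wild-type values were 5.76, 5.2 and 5.04 without and 3.08, 3.91 and 3.59 with stress. The knockout values were 5.26, 5.55 and 5.61, and 3.59, 4.01 and 3.96. Stressed mice of both genotypes lay in 1 range in CD8a cells, well below the controls, with changes of -0.59 ± 0.08 and -0.50 ± 0.08.

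Lef1 (chromosome 3, 131110471 to 131224356, plus strand) encodes the close relative of TCF-1 that shares its DNA word. In CD4 cells it was 7.20, 7.01 and 6.99 in wild-type controls and 3.94, 5.02 and 4.79 after stress. Knockout mice had 6.17, 7.31 and 7.07 without and 4.97, 5.46 and 4.24 with stress. The stressed groups overlapped each other and neither reached a control. The changes were -0.62 ± 0.10 and -0.48 ± 0.10. In CD8a cells Lef1 was 7.0, 5.69 and 6.03 in wild-type controls, the widest spread among its 4 groups there. It was 4.25, 4.68 and 4.72 in stressed wild-type mice, 6.78, 7.02 and 6.64 in knockout controls and 4.81, 4.41 and 4.13 in stressed knockout mice. Lef1 was the factor with the smallest change in CD8a cells of wild-type mice, -0.44 ± 0.08, and changed by -0.61 ± 0.08 in knockout mice.

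Satb1 (chromosome 17, 51736187 to 51833290, minus strand) encodes a protein that folds chromatin into loops and is needed for thymocyte development. It had the largest change of the 7 in every comparison. Its CD4 levels were 7.72, 7.51 and 7.77 in wild-type controls and 3.48, 4.04 and 3.58 after stress, and 6.64, 7.69 and 7.44 in knockout controls and 4.23, 3.86 and 3.56 after stress. The highest stressed mouse was far below the lowest control, which was 1.57 times as high. The changes were -1.03 ± 0.08 (limma, adjusted p = 2.0e-07) and -0.89 ± 0.08, and 2.60% and 5.40% of all genes had a lower change. In CD8a cells Satb1 was 6.62, 6.07 and 6.37 in wild-type controls and 3.06, 3.68 and 3.85 after stress, against 6.38, 6.58 and 6.85, and 3.68, 3.59 and 3.73, in knockout mice. Stress left 55.6% of the control mean in both genotypes, and the changes were -0.84 ± 0.08 and -0.83 ± 0.08. More genes lay below these CD8a changes, 11.6% in wild-type and 8.14% in knockout mice.

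The forkhead factors Foxp1 and Foxo1 have different parts in quiescence. Foxp1 (chromosome 6, 98925338 to 99522721, minus strand) encodes a repressor that holds naive cells at rest. Its CD4 levels were 6.13, 6.15 and 6.42 in wild-type controls and 3.35, 3.70 and 3.46 after stress, against 5.18, 5.57 and 6.01, and 3.79, 3.58 and 2.94, in knockout mice. All 3 knockout controls were below all 3 wild-type controls, a separation that 6.24% of all genes showed in this direction, and stressed groups overlapped. Foxp1 changed by -0.82 ± 0.09 in wild-type and -0.69 ± 0.09 in knockout mice. In CD8a cells it ranged from 5.42 to 6.05 in controls and from 2.85 to 3.89 in stressed mice, with changes of -0.76 ± 0.08 and -0.65 ± 0.08.

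Foxo1 (chromosome 3, 52268336 to 52353221, plus strand) encodes an activator of homing and survival genes that kinase signalling through Akt moves out of the nucleus. In CD4 cells it was 2.33, 2.00 and 2.47 in wild-type controls and 1.13, 1.15 and 1.27 after stress. In knockout mice it was 2.05, 2.17 and 2.03 without and 1.27, 1.35 and 1.20 with stress. The 6 stressed mice lay close together, from 1.13 to 1.35, and the changes were -0.88 ± 0.09 and -0.67 ± 0.09. In CD8a cells controls ranged from 1.47 to 1.82 and stressed mice from 0.893 to 1.09, with changes of -0.77 ± 0.09 and -0.63 ± 0.09.

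Bach2 (chromosome 4, 32238804 to 32586108, plus strand) encodes a repressor that competes with AP-1 at effector genes and is used by T and B cells. Its CD4 level was 1.42, 1.24 and 1.46 in wild-type controls and 0.758, 0.868 and 0.704 after stress, and 1.11, 1.09 and 1.29 in knockout controls and 0.840, 1.01 and 0.664 after stress. Knockout stressed mouse 2 came within 1.08 times of the lowest control, and knockout stressed mice spread more than any other group of this gene. The changes were -0.75 ± 0.12 (limma, adjusted p = 1.1e-04) and -0.44 ± 0.12 (adjusted p = 0.0084). The call in knockout mice did not hold without knockout stressed mouse 3 (-0.31, adjusted p = 0.051) or with each mouse centred on its median (-0.30, adjusted p = 0.059).

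Bcl11b (chromosome 12, 107910403 to 108003602, minus strand) encodes a zinc finger protein that commits progenitors to the T lineage and is kept on in mature T cells. In CD4 cells it was 6.16, 6.35 and 5.38 in wild-type controls and 3.28, 3.85 and 4.19 after stress. Knockout mice had 6.72, 6.52 and 6.21 without and 4.16, 4.51 and 4.46 with stress. Here the knockout mean was the higher one both without stress and under it, with overlap of single mice in both, and stress changed the gene by -0.65 ± 0.09 and -0.56 ± 0.09. In CD8a cells it was 4.54, 4.09 and 4.03 in wild-type controls and 1.92, 2.69 and 2.66 after stress, against 4.31, 4.57 and 4.33, and 2.72, 2.71 and 2.63, in knockout mice. Wild-type stressed mouse 1 was the lowest of all 12 CD8a values, and the changes were -0.79 ± 0.10 and -0.69 ± 0.10.

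Wild-type stressed mouse 1 had the lowest level of all for Tcf7, Lef1, Satb1, Foxo1 and Bcl11b in CD4 cells and for Tcf7, Satb1, Foxp1, Foxo1 and Bcl11b in CD8a cells. The other minima, those of Foxp1 and Bach2 in CD4 and of Lef1 in CD8a cells, were in knockout stressed mouse 3. With either mouse left out, every factor was still called lower in each stress comparison, except Bach2 in knockout mice without knockout stressed mouse 3. Centring each mouse on its median lowered the CD8a changes of Tcf7 to -0.39 in wild-type and -0.32 in knockout mice and that of Lef1 to -0.25 in wild-type mice. A pseudocount of 1 lowered those of the weakly expressed Foxo1 (-0.58 and -0.44 in CD4, -0.46 and -0.39 in CD8a cells) and Bach2 (-0.42 and -0.24). All these were still called. Levels of pairs of factors went together over the 12 mice, with Pearson's r of 0.77 to 0.98 over 21 pairs in CD4 cells and 0.92 to 0.99 over 15 pairs in CD8a cells. These mice share the stress difference and each mouse's library. In deviations from the group means, r ran from -0.25 to 0.91 in CD4 cells (median 0.45) and from 0.30 to 0.89 in CD8a cells (median 0.56). The lowest CD4 values were those of Bcl11b with Bach2, -0.25, and with Foxp1, -0.20.

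**Figure D2:**
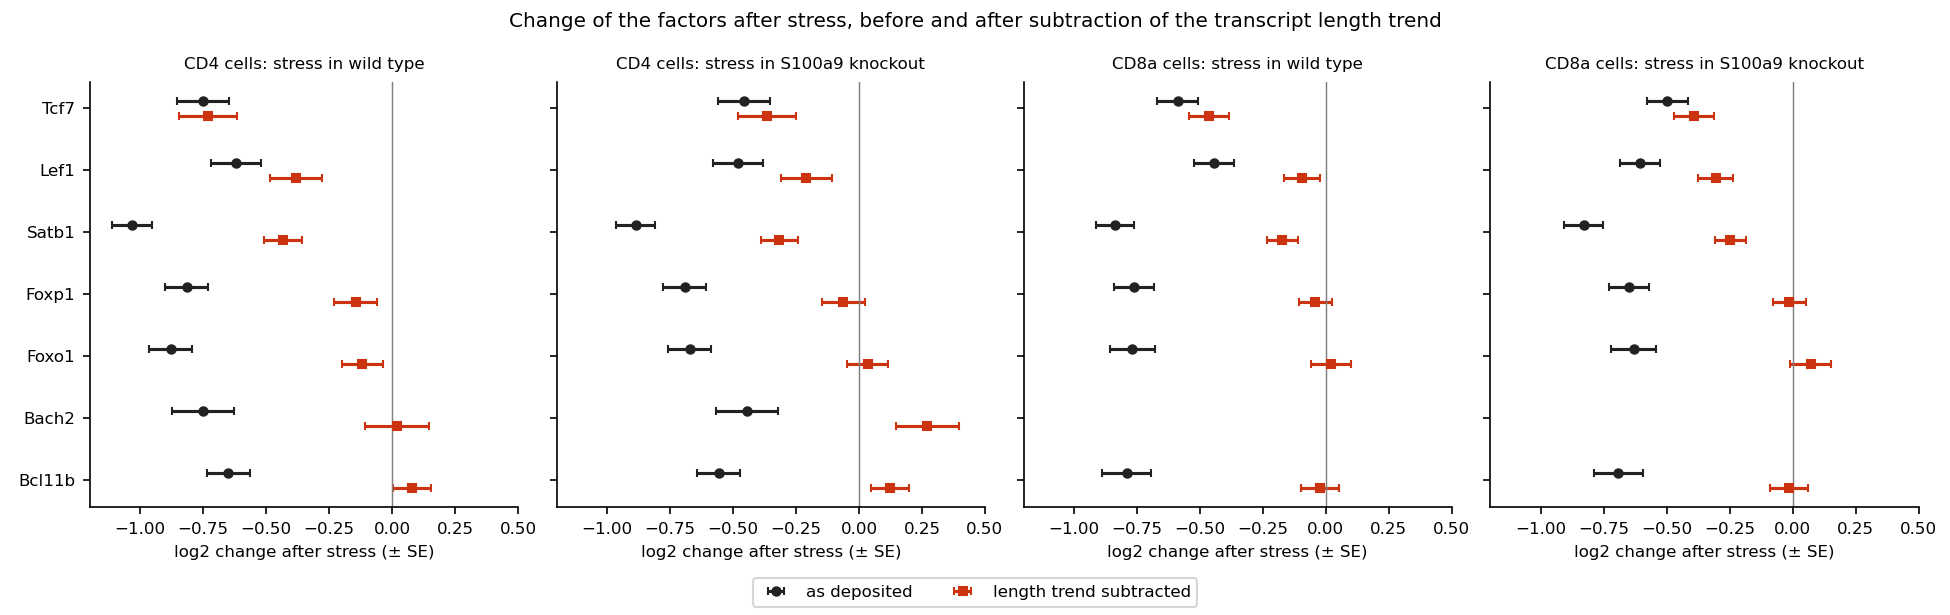
Log2 change after stress (x axis, points with SE) of each factor in the 4 stress comparisons, as measured (black circles) and with each mouse's trend over transcript length subtracted (red squares); n = 3 mice per group. Every black circle lies below 0, from -0.44 to -1.03, whereas after subtraction Tcf7, Satb1, Lef1 and Foxp1 stay below 0 in all 4 panels, the first pair called in each, and Bach2, Bcl11b and Foxo1 reach values above 0.

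The fall of the factors was set beside the length of their transcripts. Their longest protein-coding transcripts in GENCODE M21 have 2471 bases (Tcf7), 3482 (Lef1), 6243 (Satb1), 7177 (Foxp1), 8665 (Foxo1), 8882 (Bach2) and 8111 (Bcl11b), all longer than the median gene of the CD4 table, 1918.5 bases. Genes called lower after stress had median lengths of 5137 bases in CD4 cells of wild-type and 5077 of knockout mice, and genes called higher 1108 and 908.5. In CD8a cells the medians were 5078.5 and 5119.5 for lower genes and 1059 and 884.5 for higher ones.

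The changes of all genes fell into 2 separate crowds. In CD4 cells of wild-type mice 774 genes changed by less than -0.4, with a median of -0.79, 2106 lay above -0.2, with a median of 0.21, and only 119 lay between. The other comparisons had 823, 949 and 899 genes below -0.4 and 184, 105 and 139 between (bounds chosen after the values were seen). Every factor was in the lower crowd in every comparison. Of CD4 genes with transcripts of 6000 to 9000 bases, the class of Satb1, Foxp1, Foxo1, Bach2 and Bcl11b, 84.9% were in it in wild-type and 88.3% in knockout mice, and 93.2% and 91.3% in CD8a cells. In the class of Lef1, 3000 to 4000 bases, the shares were 37.3% and 42.1% in CD4 and 48.4% and 43.9% in CD8a cells. In that of Tcf7, 2000 to 3000 bases, they were 15.1% and 17.1%, and 25.3% and 22.8%. Tcf7 was thus in the lower crowd with few genes of its length, and the 5 long factors with most genes of theirs. These shares do not describe the size of the fall. In CD4 cells of wild-type mice, lower-crowd genes of 6000 to 9000 bases had a median change of -0.79. Satb1 changed there by -1.03, Foxo1 by -0.88, Foxp1 by -0.82, Bach2 by -0.75 and Bcl11b by -0.65. Lower-crowd genes of 2000 to 3000 bases had medians of -0.77 and -0.63 in CD4 and -0.70 and -0.64 in CD8a cells (wild type, knockout). Tcf7 changed by -0.75, -0.46, -0.59 and -0.50. Those of 3000 to 4000 bases had -0.72, -0.66, -0.72 and -0.64, and Lef1 -0.62, -0.48, -0.44 and -0.61.

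**Figure D3:**
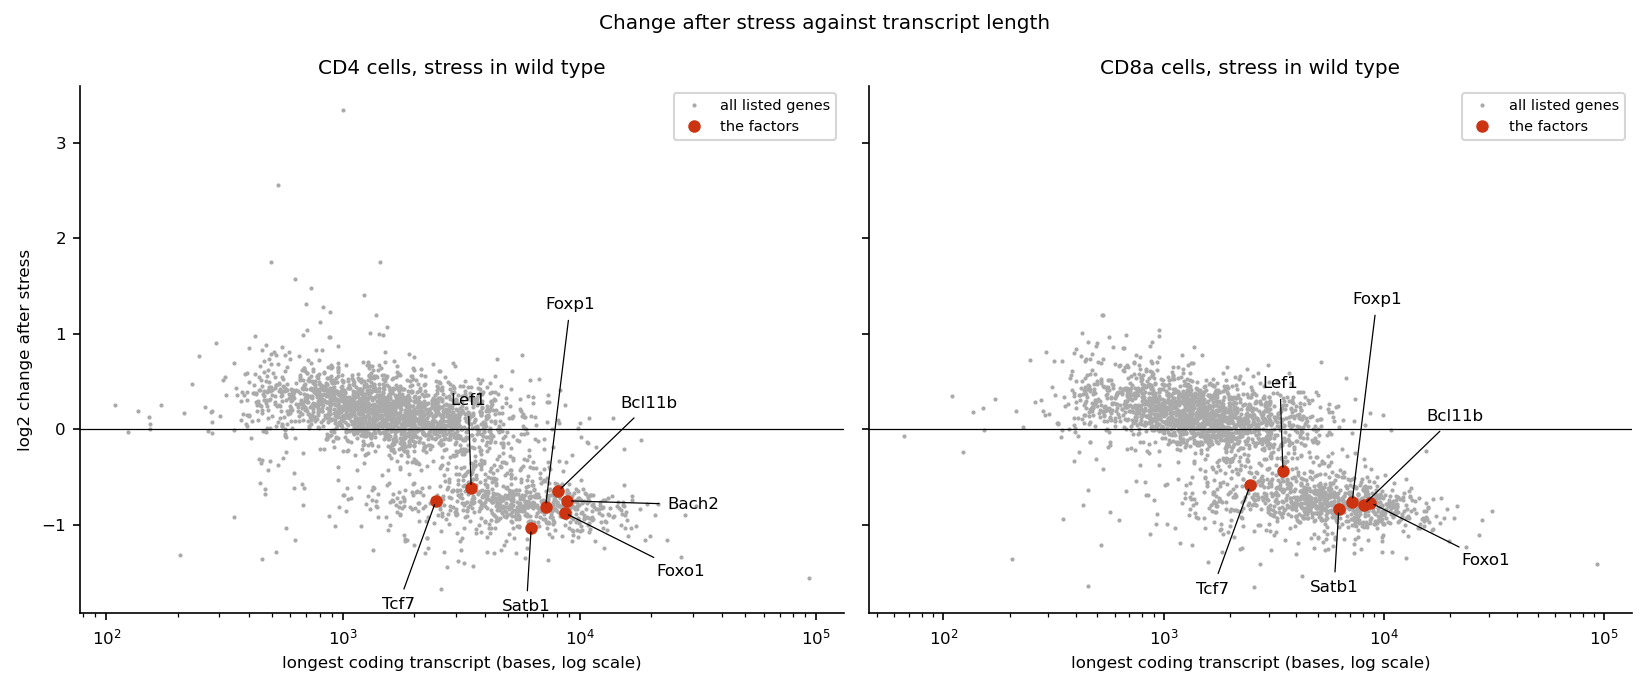
Log2 change after stress in wild-type mice (y axis) against the length of the longest protein-coding transcript (x axis, bases, log scale) for all genes with a length (grey) and the factors (red), CD4 cells on the left and CD8a cells on the right. Grey points form an upper and a lower crowd with few between, and the factors lie in the lower one, Tcf7 at 2471 bases near its short end.

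With a smooth trend over log length subtracted in each mouse, 3 of 7 factors were called lower in CD4 cells of wild-type mice, beside 14.2% of all genes. The calls were Tcf7 (-0.73 ± 0.11, adjusted p = 2.1e-04), Satb1 (-0.43 ± 0.08) and Lef1 (-0.38 ± 0.10). Foxp1 (-0.14 ± 0.09), Foxo1 (-0.12 ± 0.08), Bach2 (0.020 ± 0.13) and Bcl11b (0.079 ± 0.07) did not pass. In knockout mice CD4 calls were Tcf7 (-0.36 ± 0.11, adjusted p = 0.031) and Satb1 (-0.32 ± 0.08), 2 of 7 beside 12.5% of all genes, and not Lef1 (-0.21 ± 0.10). In CD8a cells of wild-type mice Tcf7 (-0.46 ± 0.08) and Satb1 (-0.17 ± 0.06, adjusted p = 0.040) were called, 2 of 6 beside 15.3%. In CD8a cells of knockout mice Tcf7 (-0.39 ± 0.08), Lef1 (-0.31 ± 0.07) and Satb1 (-0.25 ± 0.06) were called, 3 of 6 beside 14.1%. Satb1 overlaps Gm36931 and Foxp1 overlaps Gm20696 on the same strand, so reads of these factors could have been split by the counting. Whether length itself, or something that goes with it, moved these levels was not tested.

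Markers of other cells were read in the same averages. The 6 listed natural killer markers (Nkg7, Klrd1, Gzma, Gzmb, Prf1 and Ccl5, of 12 on the list) had sums of 3.01 to 8.27 in unstressed CD4 cells and 9.43 to 41.2 in stressed ones, while sums over the 7 factors ran from 32.9 to 36.5 and from 18.8 to 24.4. Ccl5, which T cells also make, was on average most of that sum. The lowest stressed marker sum in CD4 cells was 9.43, in wild-type stressed mouse 2, with a factor sum of 22.3. The highest unstressed marker sum was 8.27, in knockout control mouse 1, with a factor sum of 32.9. These 2 mice differ in genotype and were picked after the values were seen. In CD8a cells 4 markers summed to 13.8 to 22.4 and 25.1 to 47.2, and the 6 factors to 28.3 to 31.5 and 16.1 to 19.8. None of the listed markers was at 0 in all mice, and the part of such cells in the factors' fall was not tested.

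B cells express Bach2, Foxp1 and Foxo1 too, and their markers differed between mice. The 8 B cell and class II markers listed for CD4 cells, of 17, ranged from 3.5 to 11.6 without stress and from 3.46 to 7.26 with it. In wild-type mice alone they were 9.16, 5.37 and 3.5 without and 4.41, 4.52 and 7.26 with stress, which overlap, and 1 of the 8 was called lower. In CD4 cells of knockout mice 8 of 8 were called lower (median log2 change -1.14), so there these markers fell together with the factors. In CD8a cells 10 of them summed to 7.18 to 14.2 and 4.70 to 6.99, with 8 of 10 called lower in wild-type (median -0.64) and 10 of 10 in knockout mice (-1.13). Of all genes 27.7%, 29%, 35.5% and 34.4% were called lower in the 4 stress comparisons and 22.9%, 12.7%, 18.8% and 13.2% higher. The part of cells with these markers in the factors' fall was not tested. Sums over 10 T cell markers were 54.4 to 62.9 in unstressed and 60.2 to 67.2 in stressed CD4 cells, where Cd4 itself was the 1 marker called lower and 4 (wild type) and 2 (knockout) were called higher. In CD8a cells the sums were 63.0 to 70.0 and 61.5 to 66.8. There Cd3e, Cd8a, Cd8b1 and Thy1 were called lower in both genotypes, against 2 and 1 called higher.

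**Figure D4:**
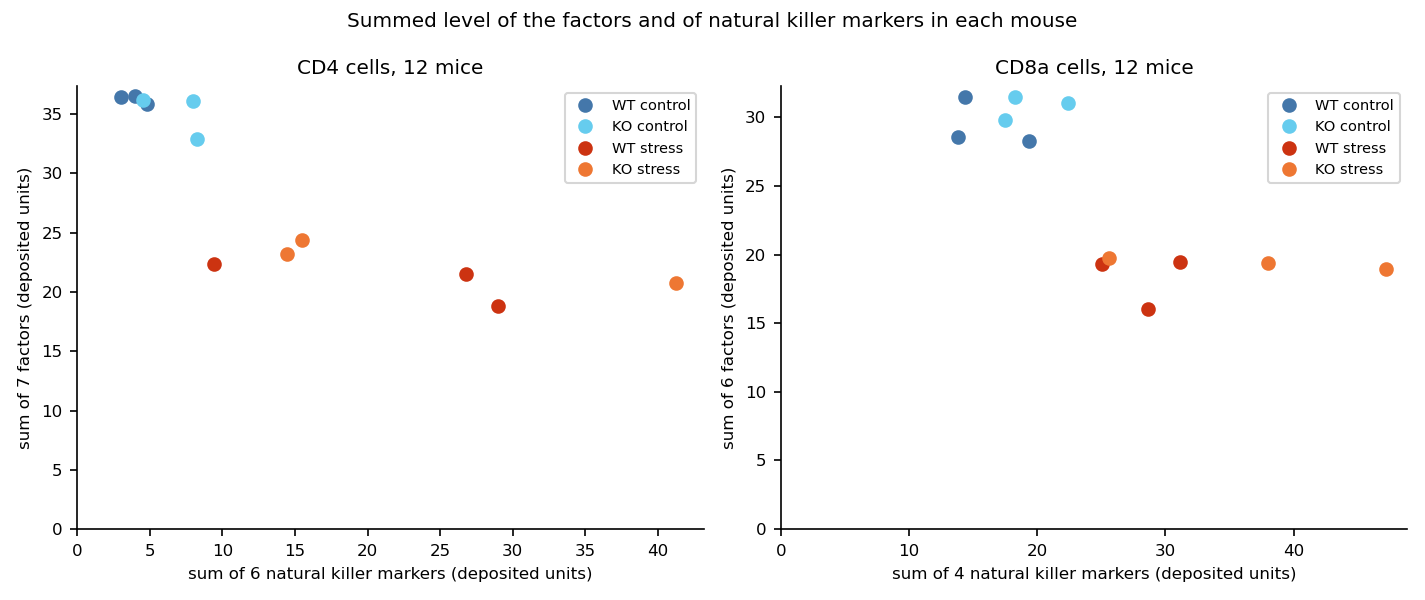
Summed level of the factors (y axis, deposited units) against the summed level of listed natural killer markers (x axis, deposited units) in each of 12 mice, 7 factors and 6 markers in CD4 cells and 6 factors and 4 markers in CD8a cells. Stressed mice (red and orange) lie at 16.1 to 24.4 on the factor axis over a wide range of the marker axis, and controls (blue) at 28.3 to 36.5.

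Loss of S100a9 was then compared at rest and under stress. No factor was called between genotypes (limma, 0 of 7 in CD4 and 0 of 6 in CD8a cells), in unstressed or in stressed mice. The share of all genes called was 3.23% in unstressed and 0.1% in stressed CD4 cells and 0.702% and 0.631% in CD8a cells. By unadjusted p the nearest to a difference was Tcf7 in stressed CD4 cells. It averaged 4.09 ± 0.5 (SD, n = 3) in knockout and 3.37 ± 0.425 in wild-type mice, and all 3 knockout mice were above all 3 wild-type mice, as for 8.57% of genes. Its log2 difference was 0.27 (95% interval 0.06 to 0.49, limma, adjusted p = 0.36), and that of Bcl11b was 0.21 (0.03 to 0.40, adjusted p = 0.38). These 2 factors, and 299 genes in all, had an unadjusted p under 0.05. In unstressed CD4 cells the lowest difference was that of Bach2, -0.22 (-0.49 to 0.04), and the highest that of Bcl11b, 0.12 (-0.06 to 0.30).

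Whether stress acted differently in the knockout was tested as an interaction over all 12 mice. No gene was called in either cell type (limma, 0% of genes), with 284 genes in CD4 and 204 in CD8a cells, and 0 factors, at an unadjusted p under 0.05. In CD4 cells the interaction was above 0 for all 7 factors, that is, a smaller fall in knockout mice. It ranged from 0.09 for Bcl11b (-0.17 to 0.35) to 0.31 for Bach2 (-0.07 to 0.68), with 0.29 for Tcf7 (-0.01 to 0.60). All 7 values share the same mice, so they are not separate results, and the median over all genes was -0.046. In CD8a cells Lef1 had -0.16 (-0.40 to 0.07), Satb1 0.01 (-0.22 to 0.23) and the others 0.09 to 0.14. The intervals leave room for a difference in either direction.

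CD4 and CD8a cells of a mouse come from the same library, so levels were compared within mice, as the CD8a minus the CD4 log2 value over 2166 genes given for both. Averages of the 2 cell types may have been normalized separately. Of 6 factors 3 were lower in CD8a cells, where 35.5% of genes were lower and 17.3% higher. Bcl11b was lower in 12 of 12 mice, by between 0.41 and 0.74 on the log2 scale, and its mean difference of -0.59 ± 0.03 SE (limma, adjusted p = 6.5e-08) was lower than that of all but 1.11% of genes. Foxo1 was lower in 12 of 12 mice (-0.31 ± 0.04), and Satb1 in 10 of 12 (-0.14 ± 0.03, adjusted p = 0.0055). Lef1 (-0.08, 95% interval -0.16 to 0.00, adjusted p = 0.092) did not pass, but did with a pseudocount of 1 or with quality weights (adjusted p = 0.038 for both). Tcf7 was lower in 6 of 12 mice (-0.04, -0.12 to 0.04) and Foxp1 in 7 of 12 (-0.02, -0.10 to 0.05).

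**Figure D5:**
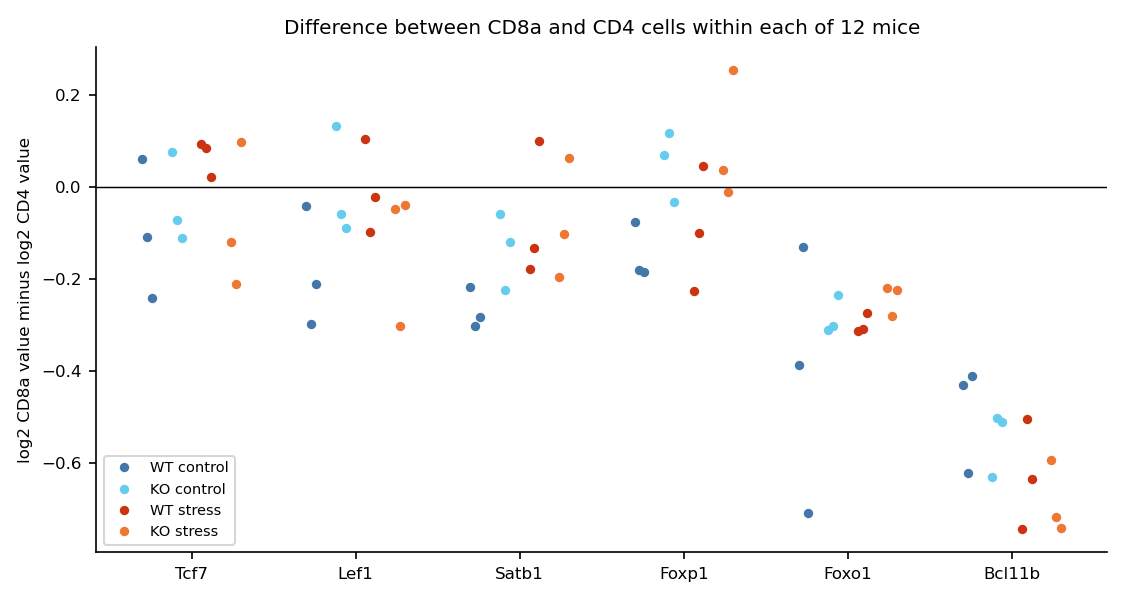
CD8a minus CD4 log2 value of 6 factors (y axis) within each of 12 mice, coloured by group. Bcl11b and Foxo1 lie below 0 in all 12 mice, Satb1 and Lef1 in 10, Foxp1 in 7 and Tcf7 in 6.

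The size of the stress effect, both genotypes together, was compared between the cell types in the same way. No gene was called (limma, 0 of 2166, with 143 genes and 0 factors at an unadjusted p under 0.05). Satb1 had 0.13 (-0.02 to 0.28), the CD4 change being the larger, and Bcl11b -0.14 (-0.29 to 0.01), the CD8a change being the larger. Tcf7, Lef1, Foxp1 and Foxo1 had 0.03 to 0.08.

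Genes that work with the factors or downstream of them were read from lists chosen for their roles. Of the naive homing, survival and quiescence genes, 4 of 7 listed fell in CD4 cells in wild-type and in knockout mice, and 7 of 12 in CD8a cells in both. The share of all genes called lower was 27.7%, 29%, 35.5% and 34.4% in these comparisons. After length subtraction 4, 1, 5 and 4 of the list were called lower and 1, 1, 3 and 1 higher. Of all genes 14.2%, 12.5%, 15.3% and 14.1% were then called lower and 13.6%, 11.4%, 15.9% and 12.8% higher. Rapgef4, which encodes an exchange factor for Rap GTPases that cyclic AMP activates, changed by -1.09 ± 0.14 and -0.58 ± 0.14 in CD4 cells. Ccr7, the chemokine receptor that guides T cells into lymph nodes, was listed in CD8a cells, where it changed by -0.39 ± 0.08 and -0.61 ± 0.08. Il7r, the receptor for the survival cytokine IL-7 and a known Foxo1 target, did not pass there (-0.03 ± 0.12 and -0.26 ± 0.12). The 1 gene of this list that rose was Klf2, named after its values were seen, a quiescence factor that Foxo1 induces. Its CD4 level was 5.85, 6.01 and 5.21 in wild-type controls and 7.28, 7.21 and 7.21 after stress, a change of 0.34 ± 0.07, with 0.25 ± 0.07 in knockout mice. All 3 stressed wild-type mice were above the controls, opposite to the 7 factors, and its transcript of 1847 bases is shorter than theirs. After length subtraction Klf2 still rose in both CD4 comparisons (0.24 ± 0.07 and 0.25 ± 0.07), and Ccr7, of 1978 bases, still fell in both CD8a comparisons (-0.38 ± 0.08 and -0.59 ± 0.08).

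Other transcription factors of the T lineage fell with the 7: 11 of 12 listed in both CD4 comparisons, 11 of 12 in CD8a cells of wild-type and 12 of 12 in those of knockout mice, none being higher. Of all genes 27.7%, 29%, 35.5% and 34.4% were called lower. The cell types share 10 of these T lineage factors. Ets1, a factor of T cell survival, changed by -0.67 ± 0.07 and -0.59 ± 0.07 in CD4 cells, from 9.64 ± 0.195 to 6.04 ± 0.498 (SD, n = 3) in wild-type mice. Ikzf1, which encodes Ikaros, changed by -0.68 ± 0.08, -0.82 ± 0.08, -0.71 ± 0.08 and -0.72 ± 0.08 in the 4 comparisons. Klf3, another quiescence factor of the Krüppel-like family, changed in wild-type mice by -1.04 ± 0.09 (CD4) and -0.95 ± 0.10 (CD8a). After length subtraction 1, 3, 4 and 8 of the 12 were called lower and none higher, Ikzf1 in both knockout comparisons (-0.33 ± 0.08 and -0.21 ± 0.07). The shares of all genes called lower were then 14.2%, 12.5%, 15.3% and 14.1%.

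Of 8 partners of the factors listed in each cell type, corepressors, coactivators and chromatin enzymes, 7 fell in each comparison, beside 27.7%, 29%, 35.5% and 34.4% of all genes. The cell types share 7 of these partners, with Chd3 listed in CD4 and Sin3a in CD8a cells. Chd4, the remodelling subunit of the NuRD complex that Bcl11b and Ikaros recruit, changed by -0.67 ± 0.08 in both CD4 comparisons and by -0.59 ± 0.07 and -0.62 ± 0.07 in CD8a cells. Hdac7, a class IIa deacetylase, changed by -1.03 ± 0.13 in CD4 cells of wild-type mice. Tle5, a short Groucho-family protein that can bind TCF and LEF proteins, was the exception (named after its values were seen). It rose in CD4 cells by 0.27 ± 0.07 in wild-type and 0.25 ± 0.07 in knockout mice and in CD8a cells of knockout mice by 0.29 ± 0.06, and did not pass in those of wild-type mice (0.14 ± 0.06, adjusted p = 0.076). With length subtracted, 7 partners had a length, of which 1, 0, 1 and 1 were called lower and 1, 0, 1 and 0 higher. Of all genes 14.2%, 12.5%, 15.3% and 14.1% were called lower and 13.6%, 11.4%, 15.9% and 12.8% higher.

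Genes whose level followed the factors most closely were ranked by the lower of 2 Pearson correlations over 12 mice, 1 per cell type. The profile was the mean of the factors' standardized log2 values. Genes given for both cell types were ranked, without the factors and predicted genes (Gm or Rik names). The first 5 of 1967 genes were Ranbp2, a nuclear pore protein (r = 0.99 in CD4 and 0.99 in CD8a cells), Dgka, a lipid kinase (0.99 and 0.98), Ipcef1 (0.98 and 0.99), Bclaf1 (0.98 and 0.98) and the octamer factor Pou2f1 (0.98 and 0.98). In all, 361 of these 1967 genes had an r above 0.9 in both cell types. These mice share the stress difference, so r describes mainly the step between unstressed and stressed mice.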

How the data were processed

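Splenocytes of 12 mice were sequenced as 10x Genomics 3' v2 libraries, which count transcript ends, per the labels' protocols. The submitters' processing notes name Cell Ranger 2.1.1 and mm10. Per the file headers, the 8 tables the authors deposited hold a signal: 1 average expression value for each gene and mouse. Each lists genes selected for 1 comparison by a rule that is not given in the sources used here. Values of a gene were the same in all tables of a cell type (0 genes differed), and 0 columns were unused.

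Values were taken as log2(value + 0.1) and fitted with R 4.3.3 and limma 3.58.1, using empirical Bayes moderation with a trend, all 12 mice and 4 groups in 1 model per cell type, over every gene listed for that cell type (2999 and 2851). P-values were two-sided and Benjamini-Hochberg adjusted. Mice are separate animals. The CD4 wild-type stress fit was tested on simulated data (2999 genes, 200 changed). It found 70% of log2 changes of 0.5 and 97.8% of those of 1, and 4.33% of its calls were false. The measured comparison had many more calls, 688 higher and 832 lower, among genes the authors picked. The simulated rates need not hold for it. Lengths and positions came from GENCODE M21, matching 97.5% of CD4 and 97.6% of CD8a genes. A length trend was a lowess curve over log length fitted to each mouse.

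The members and gene lists were chosen with earlier results of these data known. From each list the 3 genes with the smallest p per stress comparison could be named, with the 5 genes most like the members. Others are named as chosen after their values were seen, or as defining markers or known targets of a factor. A gene of 1 list is not reported here and was left out of its list.

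The alternatives tried were 2 other pseudocounts (0.01, 1), genes above the lowest 25% only, centring of each mouse on its median, removal of ribosomal and mitochondrial genes, length subtraction, no trend, quality weights, mouse number as a block, only the compared groups, only genes listed for the comparison, an exact permutation test and leaving out each mouse.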

Additional observations from a re-analysis of the deposited data

How the results depend on the processing

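All members stayed lower and called in all 4 stress comparisons under both pseudocounts, removal of low genes, removal of ribosomal and mitochondrial genes, no trend, quality weights and the compared groups alone. The exceptions among the other settings follow. Subtraction of the length trend left 3, 2, 2 and 3 members called lower (CD4 wild type, CD4 knockout, CD8a wild type, CD8a knockout). It turned Bach2 to 0.020 and 0.27 and Bcl11b to 0.079 and 0.12 in CD4 cells, and Foxo1 to 0.035 in CD4 cells of knockout mice and to 0.021 and 0.071 in CD8a cells. That a lowess curve runs between 2 crowds of genes limits what it can separate. Bach2 in CD4 cells of knockout mice lost its call when centred and without 1 mouse, as given with its values. With only genes listed for each comparison it has no value there, and the other members kept their calls.

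Centring moved the median change of all genes from 0.091 to 0.15, from -0.0012 to 0.14, from 0.020 to 0.22 and from 0.013 to 0.19, and the calls from 688 higher and 832 lower to 982 and 805, from 382 and 871 to 893 and 773, from 537 and 1011 to 1262 and 927 and from 376 and 981 to 1091 and 875. Counts of all genes called between genotypes ran with the settings from 4 to 214 higher and 4 to 62 lower in unstressed CD4 cells (67 and 30 as reported), from 2 to 54 and 5 to 50 in unstressed CD8a cells (8 and 12), and from 2 to 12 and 1 to 11 in stressed CD8a cells (9 and 9). In unstressed CD4 cells the 4 higher came without knockout control 1, the 4 lower without wild-type control 3, and 159 were higher without knockout control 3. Without that last mouse the CD4 interaction called 17 genes lower (0 as reported). No member was called in any of these. Mouse numbers do not pair the mice: same-numbered mice had correlations of -0.20 to 0.23 in CD4 and -0.24 to 0.24 in CD8a cells, and with the number as a replicate block 7, 7, 6 and 6 members were called lower. The exact permutation test gives p = 0.1 for 3 mice against 3, the smallest it can give. The authors' selection of genes and the unknown number of cells limit these counts.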

Other observations

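Of the factors of effector, memory and helper T cells, 2 of 10 listed rose in CD4 cells of wild-type mice and 0 fell (limma, adjusted p under 0.05), where 22.9% of all genes rose and 27.7% fell. They were Hopx, a homeodomain protein of memory and effector cells, by 0.68 ± 0.20, and Tbx21, the T-bet gene of Th1 cells, by 0.38 ± 0.15. Tbx21 was near the lower end of the scale, at 0.0304, 0.0758 and 0.0452 in controls and 0.127, 0.0572 and 0.107 after stress, and the groups overlapped. Hopx was 0.314, 0.457 and 0.359 in controls and 0.851, 0.453 and 0.723 after stress, with stressed mouse 2 inside the control range. With length subtracted Hopx was not called in any of the 4 comparisons (adjusted p = 0.069 in this one). After subtraction 2 of the 10 were called higher in this comparison, Hopx not among them, and 0 lower. Of all genes 13.6% were then called higher and 14.2% lower. The median log2 change of the 10 was 0.25 before subtraction and 0.49 after it.

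In knockout mice 0 of 10 rose in CD4 cells and 3 fell: Ikzf2, the Helios gene of regulatory T cells (-0.71 ± 0.21), Maf (-0.85 ± 0.28) and Rora (-0.88 ± 0.31). That is close to the 29% of all genes that fell in this comparison, and 0 of 10 were called lower with length subtracted, beside 12.5% of all genes. Maf, a factor of helper and regulatory cells, was 3.06, 2.43 and 1.13 in knockout controls against 0.938, 0.927 and 0.792 in wild-type controls, a difference of 1.12 ± 0.28 (adjusted p = 0.040). Knockout controls 1 and 2 stood above every other mouse. After stress both genotypes lay from 0.745 to 1.5. The interaction of Maf was -1.12 ± 0.39 and did not pass (adjusted p = 0.39). Knockout controls 1 and 2 also had the highest CD4 sums of erythroid, neutrophil and monocyte, macrophage and dendritic markers among the 6 controls. Erythroid sums were 5.52 and 4.06, beside 0.0891 to 0.141 in wild-type controls. Sums of monocyte, macrophage and dendritic markers were 6.27 and 4.55, beside 2.73 to 3.02. Other lists did not follow this order. B cell and class II sums were highest in knockout control 3 (11.6) and wild-type control 1 (9.16). Natural killer sums were highest in knockout controls 1 (8.27) and 3 (7.95). The part of such cells in the Maf difference was not tested.

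In CD8a cells Hopx rose in both genotypes (0.47 ± 0.15 and 0.45 ± 0.15), and Tox, a factor of exhausted and developing T cells, fell in both (-0.63 ± 0.12 and -0.56 ± 0.12). Neither was called with length subtracted.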
